A study of Mus musculus with 20 samples.

Results

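The genes described here are 10 genes that serve as markers of mast cells, and the question was whether their transcripts differed between the knee joints of 4 treatment groups and whether they rose and fell together from joint to joint. Members were taken by gene symbol (Cpa3, Cma1, Mcpt4, Tpsb2, Tpsab1, Kit, Fcer1a, Ms4a2, Hdc and Gata2), and 9 of the 10 were among the 14793 genes measured; Tpsab1 was not analysed here. Bulk RNA sequencing had been performed on the right knee joints of 20 male C57BL/6Nci mice, 12 weeks old at the start of the study, 5 biological replicates per group out of 10 mice per group. All mice, controls included, had undergone destabilization of the medial meniscus (DMM), a surgical model of osteoarthritis. Control joints (CTRL) received needle insertion alone. MSC joints received non-activated mesenchymal stromal cells grown from the pooled fat of donor mice, injected in weeks 3 and 5 after surgery. TLR3-MSC joints (labelled TLR) received the same cells after activation with polyinosinic-polycytidylic acid (pIC), a TLR3 agonist, and STING-MSC joints (labelled STING) received cells activated with 2′,3′-cGAMP, a STING agonist. No group was injected with vehicle, so that cells and injected fluid cannot be told apart in the comparisons with control. The whole knee was minced, with cartilage, synovium, capsule and adjacent bone, and the study's text places collection 8 weeks after surgery in one place and 24 h after injection in another.

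Mast cells are tissue-resident immune cells that arise from marrow progenitors and mature in connective tissue, including the synovium, joint capsule, fat and skin around a joint. They store histamine and proteases in granules, bind immunoglobulin E through the high-affinity receptor FcεRI, and depend on stem cell factor acting on the receptor KIT. Several of the marker genes are shared with basophils, which also carry FcεRI and make histamine, and with progenitors in bone marrow.

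Each joint had from 27955496 to 52529973 reads on the genes of the table, with a median of 33523061. Values are normalized counts, which are reads per gene divided by a size factor for each joint. The fewest reads behind any value of the 9 genes were 29 (Cma1 in MSC replicate 4 and Tpsb2 in control replicate 2). Counting error was therefore small beside the differences between joints. The library of MSC replicate 5 stood apart, since 296 genes were listed at 0 there and 239 of these had reads in every other joint, but none of the 9 genes was among them. In bulk tissue, fewer cells of a type and less RNA per cell cannot be told apart, and this holds for every value below.

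The label of mast cell genes was first checked by level. Per kilobase of transcript, mean normalized counts over the 20 joints were 1083 for Hdc, 337 for Cpa3, 256 for Kit, 248 for Gata2, 185 for Fcer1a, 176 for Mcpt4, 129 for Ms4a2, 123 for Cma1 and 115 for Tpsb2. The basophil proteases Mcpt8 and Prss34 were at 1626 and 2769 per kilobase, and Gata1, a transcription factor of the erythroid, megakaryocyte, basophil and mast cell lineages, was at 1767. Basophil protease transcripts were thus more abundant per length than any of the 9 genes. Only Cma1, Mcpt4 and Tpsb2 among the 9 encode granule proteases that are taken to be largely restricted to connective tissue mast cells. The connective tissue mast cell receptor Mrgprb1, named here after its values were seen, was low, with a mean normalized count of 19.3 over the 20 joints.

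The sequences just upstream of the transcription start were examined because GATA factors such as GATA2 are known regulators of mast cell genes and because the members varied in sets. RefSeq promoter windows on the GRCm38.p6 build were found for 8 of the 10 genes, and no window was found for Tpsb2 or Tpsab1. In the 250 bases upstream of the start, the letters GATA preceded by A or T and followed by A or G (4 hexamers, which share the same core) were searched on both strands, and 6 of the 8 genes (Cpa3, Cma1, Mcpt4, Fcer1a, Ms4a2 and Hdc) held at least 1 match. Of all 32851 windows of this length, 26.5% held at least 1 match and 6.40% held 2 or more. Ms4a2 held 3 matches and the other 5 genes held 1 each, whereas Kit and Gata2 held none of these letters in their windows, 2 for each gene. The windows of 5 genes are shown, Cma1 and Mcpt4 as proteases whose transcripts varied together, Cpa3 and Ms4a2 from the other set, and Hdc, the gene with the largest difference between groups relative to its error. They are written 5′ to 3′ on the strand of the gene, and capitals mark the matches, where a match on the opposite strand shows the core as TATC. A match is a description of the letters and was not tested for binding.
Cma1, chr14:55944676-55944925, minus strand: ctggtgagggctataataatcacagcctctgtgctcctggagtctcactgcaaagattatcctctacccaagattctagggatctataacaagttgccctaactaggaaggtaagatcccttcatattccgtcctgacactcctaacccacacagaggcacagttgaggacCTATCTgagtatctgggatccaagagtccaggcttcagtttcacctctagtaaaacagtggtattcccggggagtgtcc
Mcpt4, chr14:56062311-56062560, minus strand: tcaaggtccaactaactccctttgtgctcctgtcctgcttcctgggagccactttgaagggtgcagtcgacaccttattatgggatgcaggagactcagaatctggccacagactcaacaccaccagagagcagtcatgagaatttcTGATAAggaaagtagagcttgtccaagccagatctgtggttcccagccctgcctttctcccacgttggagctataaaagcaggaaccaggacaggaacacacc
Cpa3, chr3:20242182-20242431, minus strand: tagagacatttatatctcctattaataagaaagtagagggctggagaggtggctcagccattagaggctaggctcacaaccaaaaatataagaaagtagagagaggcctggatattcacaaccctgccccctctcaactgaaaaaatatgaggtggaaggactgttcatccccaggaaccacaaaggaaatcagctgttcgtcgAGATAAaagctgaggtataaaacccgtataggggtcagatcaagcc
Ms4a2, chr19:11623720-11623969, minus strand: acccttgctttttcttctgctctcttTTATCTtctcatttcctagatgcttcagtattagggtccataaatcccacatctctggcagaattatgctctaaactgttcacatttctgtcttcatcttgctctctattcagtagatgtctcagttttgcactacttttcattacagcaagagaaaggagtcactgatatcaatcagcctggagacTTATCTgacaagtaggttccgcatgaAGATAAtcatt
Hdc, chr2:126618679-126618928, minus strand: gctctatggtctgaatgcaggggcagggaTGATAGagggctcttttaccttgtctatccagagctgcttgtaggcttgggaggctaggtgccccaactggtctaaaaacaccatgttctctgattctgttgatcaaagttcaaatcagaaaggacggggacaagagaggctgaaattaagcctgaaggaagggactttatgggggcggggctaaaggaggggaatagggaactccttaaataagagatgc

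Cma1, Mcpt4 and Tpsb2 encode the mast cell chymases mMCP-5 and mMCP-4 and the tryptase mMCP-6, proteases stored with heparin in the granules of connective tissue mast cells. Their transcripts were the most variable of the 9, and higher means in the 3 cell-treated groups stood beside wide overlap between joints. In the coordinates of the deposited table (GRCm39), Cma1 lies on chromosome 14 from 56178908 to 56182133 and Mcpt4 on the same chromosome from 56297086 to 56299771, both on the minus strand. Tpsb2 lies on chromosome 17 from 25585279 to 25588073. Aligned transcripts of Cma1 and Mcpt4 were 71.4% identical and those of Tpsb2 and Tpsab1 74.3%, and in neither pair was any 150-base stretch of the first found in the second, so that an error-free read of this length, the length of the paired-end reads, would come from 1 gene of the pair only.

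For Cma1, normalized counts in control replicates 1 to 5 were 201.1, 38.7, 56.6, 109.6 and 41.5, and in MSC joints 147, 231, 89.5, 23.9 and 138. TLR3-MSC joints had 125, 117, 367, 169.9 and 118, and STING-MSC joints 161, 161, 131, 151 and 94.0. Control joints 2, 3 and 5 and MSC joint 4 were low, TLR3-MSC joint 3 was high, and control joint 1 lay above all STING-MSC joints, so that every pair of groups overlapped.

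For Mcpt4, the control joints had 324, 74.9, 59.1, 196 and 48.3 and the MSC joints 219, 254, 128, 35.4 and 168. TLR3-MSC joints had 141, 213, 434, 290.0 and 184, and STING-MSC joints 224, 273, 205, 266 and 173. The same joints stood low and high as for Cma1, and the STING-MSC joints were the most even, with a coefficient of variation of 18.4% against 84.4% in controls.

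For Tpsb2, normalized counts were 235, 35.0, 59.1, 155 and 35.4 in control joints and 149, 194, 76.6, 28.0 and 226 in MSC joints. They were 113, 177, 338, 180.2 and 125 in TLR3-MSC joints and 173, 168, 127, 172 and 92.1 in STING-MSC joints. In the MSC group Tpsb2 was highest in replicate 5, where Cma1 and Mcpt4 were highest in replicate 2. All 3 proteases had their lowest value in MSC replicate 4 and their highest in TLR3-MSC replicate 3, with the highest 15.4, 12.3 and 12.1 times the lowest for Cma1, Mcpt4 and Tpsb2.

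**Figure D1:**
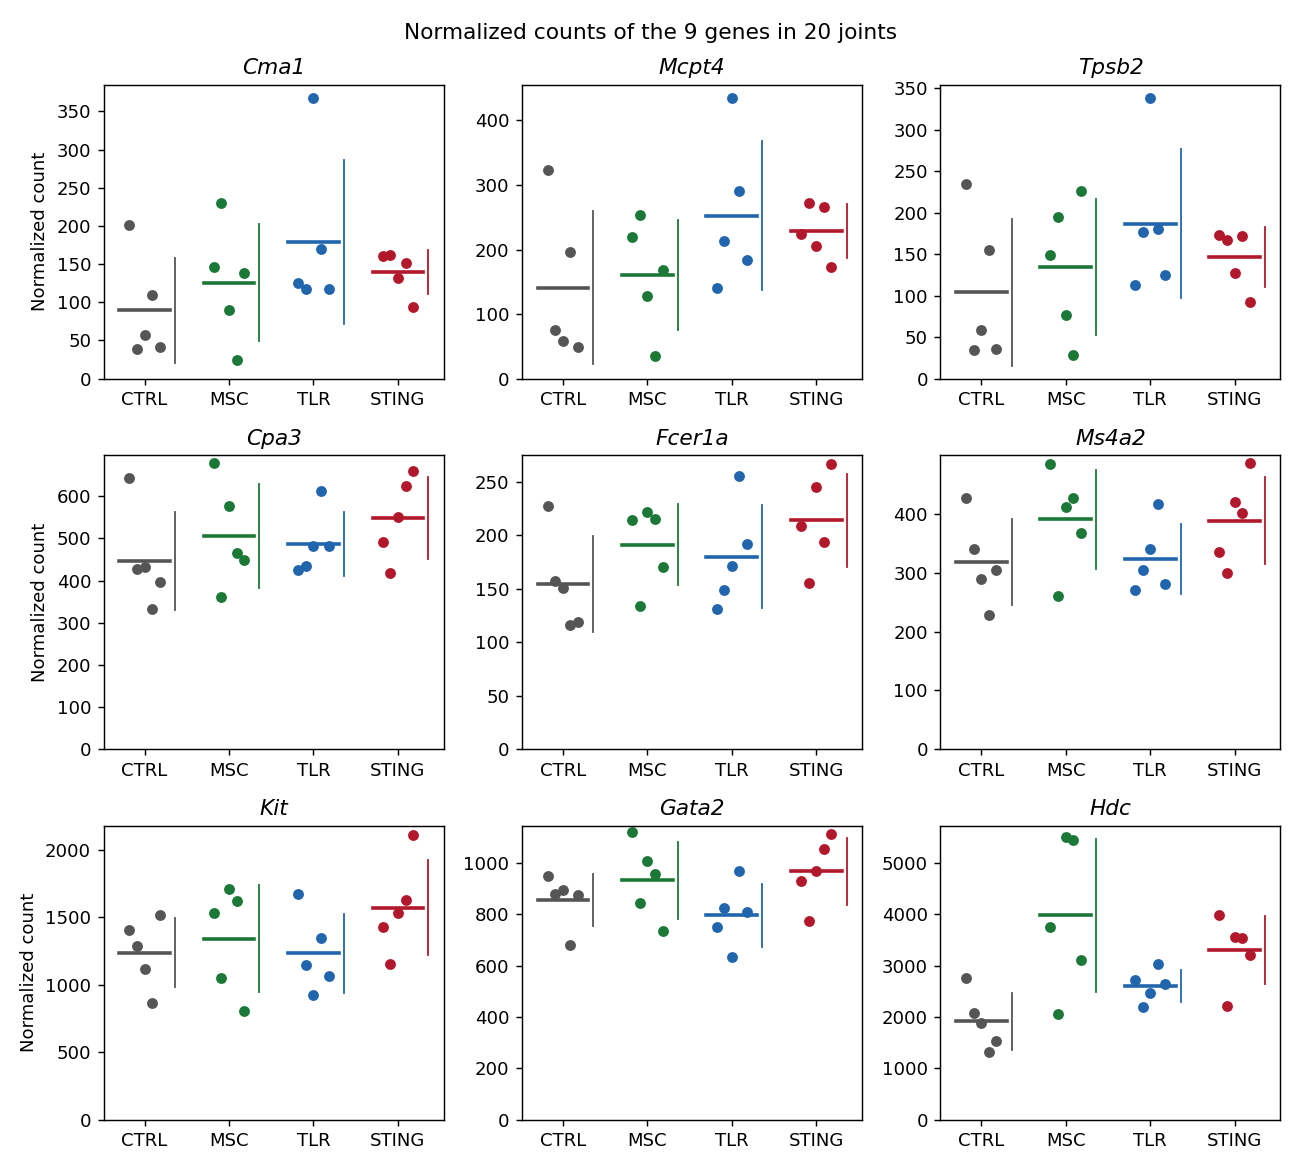
Normalized counts (vertical axes from 0) of the 9 genes in each of 20 joints, by group (CTRL, MSC, TLR for TLR3-MSC, STING for STING-MSC), 1 point per joint, in the order of replicates 1 to 5 from left to right. Horizontal bars are group means and the vertical line to their right is the mean ± SD (n = 5). The control joints of Cma1, Mcpt4 and Tpsb2 spread over most of the range of all groups, and Hdc shows MSC and STING-MSC means above the control mean.

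Carboxypeptidase A3, encoded by Cpa3 (chromosome 3, 20269784 to 20296346, minus strand), is also stored in mast cell granules but is made by basophils and early progenitors as well. Its normalized count ranged only from 333 (control replicate 4) to 679.6 (MSC replicate 1), a 2.04-fold range over all joints. Group means were 447 ± 117 (SD, n = 5) in control, 506 ± 124 in MSC, 487 ± 75.0 in TLR3-MSC and 549 ± 97.8 in STING-MSC joints. The gene overlaps an antisense long non-coding RNA (Gm31320) and a microRNA (Mir7007), and because the counting was not stated to use strand, reads of the overlapping parts cannot be told apart.

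Fcer1a and Ms4a2 encode the α and β chains of FcεRI. Fcer1a (chromosome 1, 173048851 to 173054782, minus strand) had normalized counts of 228, 157, 151, 116 and 119 in control joints and 214, 134, 222, 215 and 170.0 in MSC joints. In TLR3-MSC joints the counts were 131, 149, 172, 256 and 192, and in STING-MSC joints 208, 155, 245, 194 and 267. Control replicates 4 and 5 lay below every joint of the other groups, whereas control replicate 1 lay above all MSC joints. Ms4a2 (chromosome 19, 11592887 to 11601084, minus strand) ranged from 228 in control replicate 4 to 486 in STING-MSC replicate 5, a 2.13-fold range, with means of 318 ± 73.4 (SD, n = 5), 391 ± 83.7, 323 ± 59.2 and 389 ± 73.5 in control, MSC, TLR3-MSC and STING-MSC joints.

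Kit (chromosome 5, 75735576 to 75817383, plus strand), the receptor for stem cell factor on mast cells, progenitors and melanocytes, ranged from 804 in MSC replicate 5 to 2112 in STING-MSC replicate 5. Group means were 1238 ± 257 (SD, n = 5) in control, 1342 ± 395 in MSC, 1232 ± 291 in TLR3-MSC and 1572 ± 350.0 in STING-MSC joints. Gata2 (chromosome 6, 88170873 to 88184015, plus strand) encodes a transcription factor of progenitors, mast cells and basophils. Control joints had Gata2 counts of 949.5, 879.5, 895, 680.4 and 874, and MSC joints 1119, 842, 1009, 957 and 734. TLR3-MSC joints had 749, 822, 631, 968 and 809, and STING-MSC joints 931, 772, 969.8, 1054 and 1111. Gata2 was the most even of the 9 genes, with a 1.77-fold range, and the TLR3-MSC and STING-MSC joints overlapped although 4 of the 5 STING-MSC joints lay above 4 of the 5 TLR3-MSC joints. Both genes overlap an antisense long non-coding RNA, Gm72966 for Kit and Spehd for Gata2.

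Hdc (chromosome 2, 126435587 to 126461220, minus strand) encodes histidine decarboxylase, the enzyme that makes histamine in mast cells and basophils and that is also expressed in myeloid cells of bone marrow. Its normalized counts were 2763, 2082, 1876, 1318 and 1537 in control joints and 3759, 2059, 5510.0, 5444 and 3113 in MSC joints. TLR3-MSC joints had 2714, 2194, 2457, 3028 and 2635, and STING-MSC joints 3987, 2216, 3560.1, 3529.5 and 3202. In both the MSC and the STING-MSC group, 4 of the 5 joints lay above every control joint and replicate 2 lay inside the control range.

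Differences between groups were tested with limma over all genes, and a member was counted at an unadjusted p of at most 0.05. Across the 4 groups, the F test passed for 1 of the 9 genes, Hdc (FDR = 0.493, limma), and 6.42% of all genes passed; without control replicate 1, 4 of the 9 passed (Cma1, Fcer1a, Hdc and Mcpt4). For the other 8 genes the FDR of the F test was from 0.832 (Mcpt4) to 0.88 (Cpa3). At an FDR of at most 0.05, 0 of the 9 genes differed in any pair of groups in limma, in a table where limma called 1 gene (0.00676% of all genes) for MSC against control and 0 in the other pairs. Without MSC replicate 2, limma called Hdc for MSC against control (FDR = 0.0341). On recovered reads and at the same FDR, DESeq2 called 1 member (Hdc, MSC against control, FDR = 0.00549) and edgeR 0. Over all genes, DESeq2 called 108 and edgeR 15 for MSC against control at this FDR. In no comparison with control were all 5 cell-treated joints above all 5 control joints for any of the 9 genes, as they were for 0.737%, 0.575% and 0.933% of all genes in MSC, TLR3-MSC and STING-MSC joints. The 3 comparisons with control share the same control joints and are therefore not independent of each other.

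In MSC joints, 1 of the 9 genes, Hdc, was higher than in control joints, and 0 were lower, while 8.55% of all genes passed the test and 5.64% were higher. Hdc rose from 1915 ± 558 to 3977 ± 1498 (SD, n = 5), by 1.01 on the log2 scale (95% confidence interval 0.51 to 1.51, SE = 0.24, p = 0.000486, FDR = 0.16, limma; exact permutation p = 0.0238). Leaving out each joint in turn gave 0.87 to 1.22, past the threshold each time. All 9 log2 fold changes were above 0, with a median of 0.33 against -0.04 over all genes. The count of members passing was 3 without control replicate 1 (Fcer1a, Hdc and Ms4a2), 2 without MSC replicate 2 (Hdc and Ms4a2) and 2 without MSC replicate 4 (Cma1 and Hdc).

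In TLR3-MSC joints, the chymases Cma1 and Mcpt4 were higher than in control joints (2 of 9 genes, 3.58% of all genes passing and 2.68% higher), and 0 members were lower. Cma1 rose from 89.5 ± 68.6 to 179 ± 107 (SD, n = 5), by 1.14 on the log2 scale (95% confidence interval 0.04 to 2.23, SE = 0.52, p = 0.0424, FDR = 1.0, limma; exact permutation p = 0.0873). Mcpt4 rose from 141 ± 119 to 252 ± 115, by 1.12 (95% confidence interval 0.04 to 2.21, p = 0.0432, limma; exact permutation p = 0.111). The tryptase Tpsb2 had a log2 fold change of 1.15 and a wider error (95% confidence interval -0.01 to 2.32, limma; exact permutation p = 0.103), and Hdc one of 0.48 (95% confidence interval -0.02 to 0.99, p = 0.0585, limma; exact permutation p = 0.0476). With 5 joints against 5 the smallest exact p is 0.00794. The 2 calls did not hold under all settings: neither passed without control replicate 2, 3 or 5 or without TLR3-MSC replicate 3 or 4, while 4 members passed without control replicate 1 or MSC replicate 4 (Cma1, Hdc, Mcpt4 and Tpsb2). On the recovered reads edgeR called 0 members and DESeq2 only Cma1.

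In STING-MSC joints, Fcer1a and Hdc were higher than in control joints, 2 of 9 genes, where 12.2% of all genes passed and 6.54% were higher. Hdc rose to 3299 ± 666 (SD, n = 5), by 0.80 on the log2 scale (95% confidence interval 0.30 to 1.31, SE = 0.24, p = 0.00337, FDR = 0.291, limma; exact permutation p = 0.0159), with a range of 0.68 to 0.95 when each joint was left out. Fcer1a rose from 154 ± 45.0 to 214 ± 43.7, by 0.49 (95% confidence interval 0.04 to 0.94, SE = 0.21, p = 0.0334, FDR = 0.382, limma; exact permutation p = 0.0714). Mcpt4 had a log2 fold change of 1.07, close to that in TLR3-MSC joints, and was just outside the threshold (95% confidence interval -0.02 to 2.16, p = 0.053, limma; exact permutation p = 0.127). Cma1 (0.91, exact permutation p = 0.111) and Tpsb2 (0.88, exact permutation p = 0.175) did not pass. Neither did Cpa3 (0.31, exact permutation p = 0.159) and Ms4a2 (0.30, exact permutation p = 0.175). All 9 log2 fold changes were above 0, with a median of 0.49 against 0.01 over all genes. This count depended most on a single joint: without control replicate 1, which was the highest control joint for 8 of the 9 genes, 7 of the 9 passed, all but Kit and Gata2. It was 4 without MSC replicate 4 (Cma1, Fcer1a, Hdc and Mcpt4) and 1 (Hdc) without control replicate 5, STING-MSC replicate 3 or STING-MSC replicate 5. Fcer1a also fell short without control replicate 4 (log2 fold change 0.40). The share of all genes passing was not counted in these fits, so the 7 of 9 cannot be set against it.

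**Figure D2:**
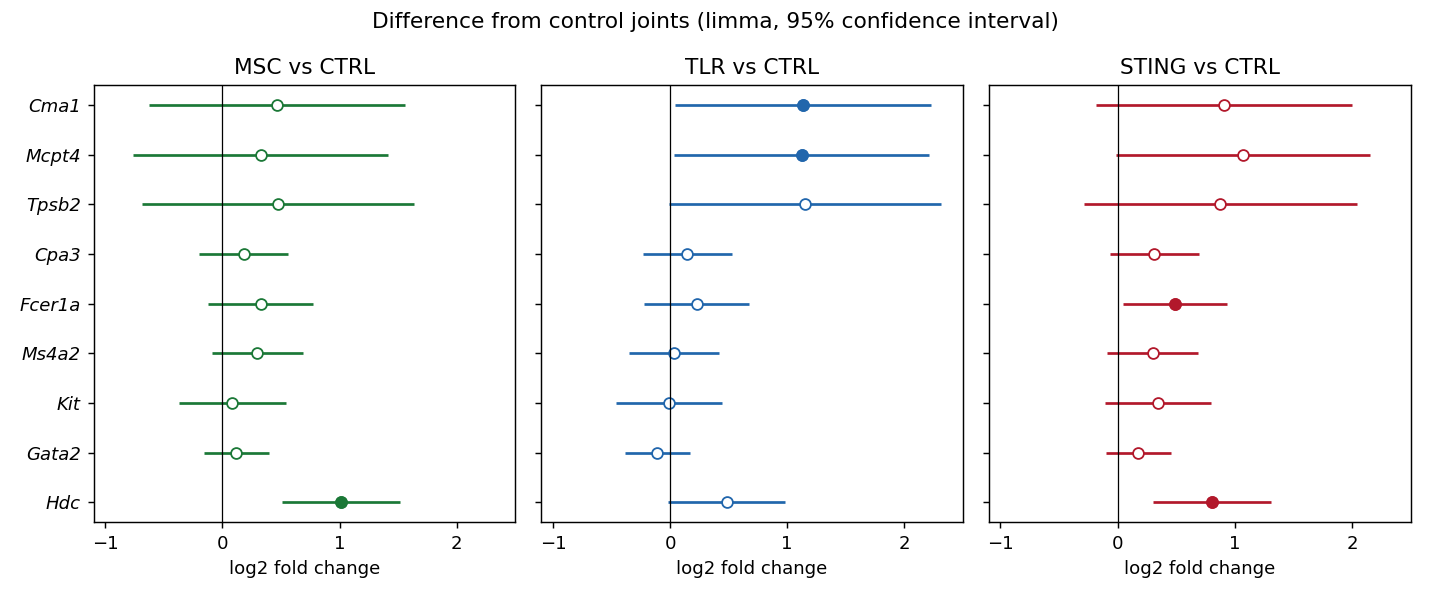
Log2 fold change (horizontal axes) of each of the 9 genes in MSC, TLR (TLR3-MSC) and STING (STING-MSC) joints against control joints, with the 95% confidence interval from limma. Filled points passed an unadjusted p of at most 0.05: Hdc for MSC, Cma1 and Mcpt4 for TLR, and Fcer1a and Hdc for STING; the intervals of Cma1, Mcpt4 and Tpsb2 are the widest.

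Between the cell-treated groups few members differed. STING-MSC and MSC joints differed in 0 of the 9 genes (limma), where 4.94% of all genes passed; edgeR and DESeq2 on the recovered reads also gave 0 at an unadjusted p of at most 0.05. For Hdc the interval of this difference ran from -0.71 to 0.30 on the log2 scale around -0.20. TLR3-MSC joints had less Hdc than MSC joints, at 2606 ± 309 against 3977 ± 1498 (SD, n = 5), which is -0.53 on the log2 scale (95% confidence interval -1.03 to -0.02, p = 0.0411, FDR = 0.978, limma; exact permutation p = 0.119). That was 1 of 9 genes, where 3.88% of all genes passed and 1.99% were lower, and the call was lost without MSC replicate 1, 3 or 4 or TLR3-MSC replicate 1, 2, 3 or 5; without MSC replicate 3 the log2 fold change was -0.39. A further member was lower without MSC replicate 2 (Ms4a2), MSC replicate 5 (Gata2) or TLR3-MSC replicate 4 (Gata2).

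Gata2 was higher in STING-MSC than in TLR3-MSC joints (968 ± 130.2 against 796 ± 122, SD, n = 5), by 0.28 on the log2 scale (95% confidence interval 0.01 to 0.56, p = 0.0447, FDR = 0.89, limma; exact permutation p = 0.0794). This was again 1 of 9 genes, where 2.57% of all genes passed and 0.784% were higher. The p of Gata2 lay close to the threshold, and the gene passed in only 9 of the 20 fits that left out 1 joint; without TLR3-MSC replicate 3 the log2 fold change was 0.20. The calls lost include those without control replicate 2, 3 or 5, which left the difference itself as it was and changed the shared estimate of the spread. Kit had its smallest p in the same pair and did not pass (0.35, 95% confidence interval -0.10 to 0.81, limma; exact permutation p = 0.127). The proteases Cma1 (-0.23, exact permutation p = 0.643), Mcpt4 (-0.05, exact permutation p = 0.841) and Tpsb2 (-0.27, exact permutation p = 0.46) did not pass in this pair either.

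The 9 genes did not vary from joint to joint as 1 set. After the group means were subtracted, the 3 proteases Cma1, Mcpt4 and Tpsb2 followed each other closely over the 20 joints, and the other 6 genes followed each other, but the one set did not follow the other. This division was seen in the data and is given as a description. Within the 3 proteases Pearson's r was 0.94 to 0.95, and within the other 6 genes the 15 pairs had r from 0.44 (Kit and Fcer1a) to 0.91 (Cpa3 and Ms4a2). Between the sets the 18 pairs had r from -0.58 (Tpsb2 and Kit) to 0.20 (Mcpt4 and Cpa3), and 13 were negative. Without the 2 joints farthest from the median of the first gene of each pair, these ranges were 0.90 to 0.93, 0.37 to 0.89 and -0.58 to 0.25. Without subtraction of the group means they were 0.94 to 0.96, 0.51 to 0.89 and -0.43 to 0.30.

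Among the 36 pairs tested, Cma1 and Mcpt4 had r = 0.95 and Spearman's rho = 0.94 (permutation p = 1e-05 for each, the smallest that 100000 permutations can give, adjusted p = 0.00012 for r), and r = 0.93 without the 2 farthest joints. Cpa3 and Ms4a2 had r = 0.91 and rho = 0.86 (permutation p = 1e-05, adjusted p = 0.00012), and r = 0.89 without the 2 farthest joints. Cpa3, itself a granule protease, did not follow the chymase Cma1 (r = 0.10, rho = -0.01, permutation p = 0.728, adjusted p = 0.845). Kit and Tpsb2 varied in opposite directions (r = -0.58, rho = -0.62, permutation p = 0.0187, adjusted p = 0.0421, and r = -0.58 without the 2 farthest joints).

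**Figure D3:**
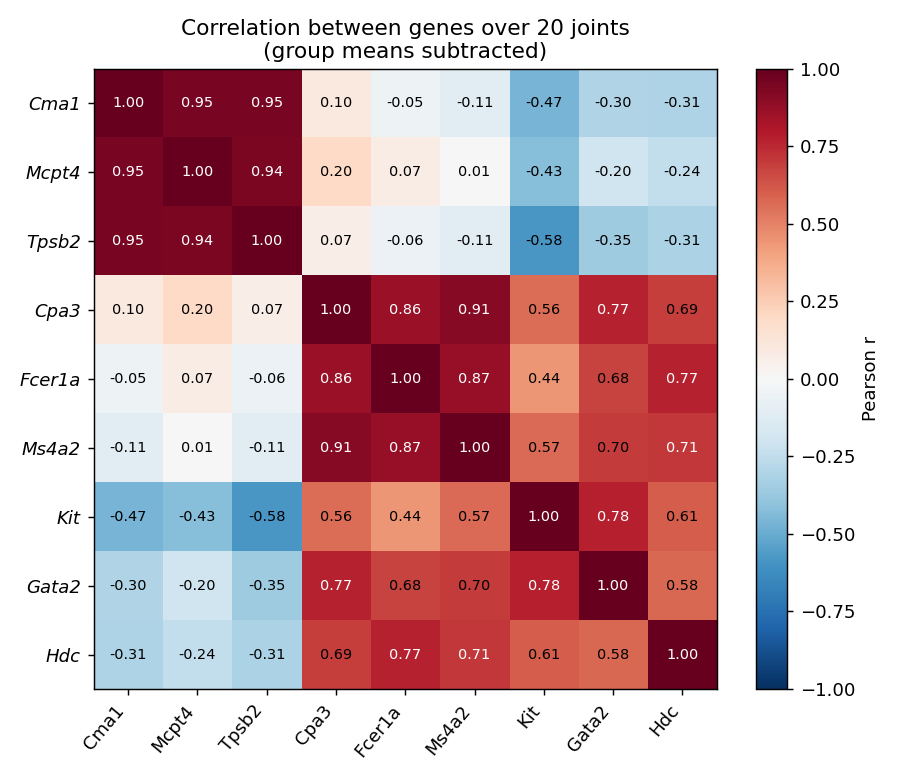
Pearson's r between each pair of the 9 genes over 20 joints (log2 of normalized count + 1, group means subtracted), red for positive and blue for negative values. Cma1, Mcpt4 and Tpsb2 form one block (0.94 to 0.95) and the other 6 genes a second (0.44 to 0.91), with values from -0.58 to 0.20 between the blocks.

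The same split is visible in the counts. In MSC replicate 4 the summed normalized count of Cma1, Mcpt4 and Tpsb2 was 87.4, the lowest of all joints, while that of Cpa3, Fcer1a and Ms4a2 was 1108, above the value in 12 other joints. TLR3-MSC replicate 3 had the highest protease sum, 1139.5, and a sum of 993 for the other 3 genes, above the value in 10 other joints, so that the joints at both ends of the protease range were in the middle of the range of the other 3 genes. The ratio of the 2 sums ran from 0.0789 in MSC replicate 4 to 1.15 in TLR3-MSC replicate 3.

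**Figure D4:**
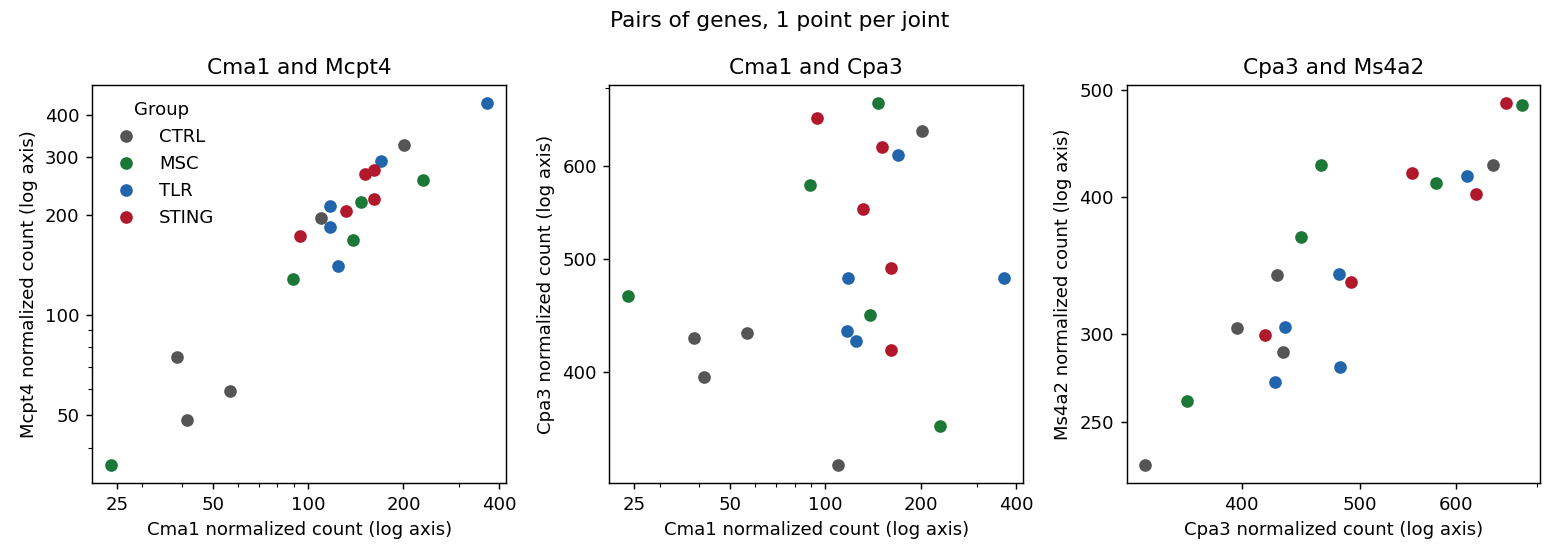
Normalized counts of pairs of genes on log axes, 1 point per joint, coloured by group. Cma1 and Mcpt4 rise together over a more than 12-fold range, Cpa3 and Ms4a2 rise together over a range of about 2-fold, and Cma1 and Cpa3 show no common trend.

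The members were next set beside lists of markers for other cells that a minced knee holds, each list taken as the mean log2 level of its genes in a joint, a comparison chosen after the values were seen, with 90 pairs of gene and list. The 3 proteases went with the adipocyte list and also with the epidermis list. Against the adipocyte list (Adipoq, Plin1, Cidec, Fabp4 and Lep, 5 of 5 measured), Tpsb2 had r = 0.86 (rho = 0.82, permutation p = 0.00011, adjusted p = 0.0011, and r = 0.81 without the 2 farthest joints). Cma1 and Mcpt4 had r = 0.85 and 0.80 with the same list. With the epidermis list (keratins and other skin genes, 8 of 8 measured), Cma1, Mcpt4 and Tpsb2 had r = 0.63, 0.71 and 0.63. By rank the lists lay closer together. For Cma1, Mcpt4 and Tpsb2 rho was 0.78, 0.83 and 0.73 with the epidermis list and 0.85, 0.81 and 0.82 with the adipocyte list. The other 6 genes had r from -0.41 to 0.10 with the adipocyte list.

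The summed adipocyte markers ranged from 5746 to 17294 in control, 8373 to 15825 in MSC, 10629 to 22200 in TLR3-MSC and 10090 to 19099 in STING-MSC joints (normalized counts). In TLR3-MSC joints 1 of the 5 markers, Plin1, was higher than in control joints, beside 2.68% of all genes. Cma1 and Mcpt4 passed in the same comparison. The log2 fold change of Plin1 was 1.04 (95% confidence interval 0.02 to 2.06, limma; exact permutation p = 0.127), and 0 of the 5 passed in the other comparisons with control. Of all genes, 8.55%, 3.58% and 12.2% passed in MSC, TLR3-MSC and STING-MSC joints against control. All 5 adipocyte markers had log2 fold changes above 0 in each of these comparisons, with medians of 0.31, 0.88 and 0.65 in the same order. The epidermis sum ranged from 614 to 6756 in control, 257 to 1557 in MSC, 554 to 23407 in TLR3-MSC and 256 to 709 in STING-MSC joints, and 0 of its 8 genes passed in these comparisons; 4 of its genes were at 0 in at least 1 joint. The part of fat or skin in the protease values was not tested.

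The other 6 genes went with the basophil and granulocyte lists and, Fcer1a least, with the megakaryocyte and erythroid list. With the blood progenitor list (7 genes), by contrast, their r was 0.01 to 0.30 and did not pass (adjusted p of 0.376 or more by permutation). Against the basophil list (Mcpt8, Prss34, Cd200r3, Il4, Il3ra and Itga2b, 6 of 6 measured), Cpa3 had r = 0.89 (rho = 0.92, permutation p = 1e-05, the smallest possible, adjusted p = 0.0003, and r = 0.87 without the 2 farthest joints), and Gata2 had r = 0.93. Fcer1a and Ms4a2 had r = 0.86 and 0.84 with this list, whereas Cma1, Mcpt4 and Tpsb2 had r from -0.25 to -0.08. Kit stood closest to the megakaryocyte and erythroid list (7 of 8 measured), with r = 0.96 (rho = 0.97, permutation p = 1e-05, the smallest possible, adjusted p = 0.0003, and r = 0.95 without the 2 farthest joints). That list was not particular to Kit. For the rest of the 6 genes r with it ran from 0.51 (Fcer1a, permutation, adjusted p = 0.0945) to 0.74 (Gata2, permutation, adjusted p = 0.00521). Itga2b belongs to both this list and the basophil list. The basophil sum ranged from 8351 to 16735 in control, 9976 to 17824 in MSC, 9080 to 15973 in TLR3-MSC and 10852 to 21899 in STING-MSC joints. In the comparisons with control 0 of its 6 genes passed, beside 8.55%, 3.58% and 12.2% of all genes in MSC, TLR3-MSC and STING-MSC joints. A count over 6 genes cannot be told apart from these shares. All of these values come from the same libraries and share the size factors.

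Hdc had r = 0.82 with the granulocyte progenitor and neutrophil list (rho = 0.77, permutation p = 0.00019, adjusted p = 0.00155, and r = 0.81 without the 2 farthest joints) and r = -0.80 with the endothelial list. These values were not particular to Hdc: over the 6 genes r was 0.75 to 0.83 with the granulocyte list, highest for Gata2, and -0.82 to -0.58 with the endothelial list, lowest for Ms4a2. The granulocyte sum ranged from 335403 to 589473 in control, 474688 to 809509 in MSC, 435976 to 691185 in TLR3-MSC and 481596 to 730799 in STING-MSC joints, with all 9 genes measured. Of these, 3 were higher in MSC joints, 0 in TLR3-MSC joints and 7 in STING-MSC joints than in control joints, and 0 were lower, beside 5.64%, 2.68% and 6.54% of all genes that were higher. Hdc was higher in the first and the last of these comparisons. In TLR3-MSC joints all 9 log2 fold changes were above 0 as well, with a median of 0.21 against 0.42 in MSC and 0.54 in STING-MSC joints. Their part in the Hdc result was not tested.

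**Figure D5:**
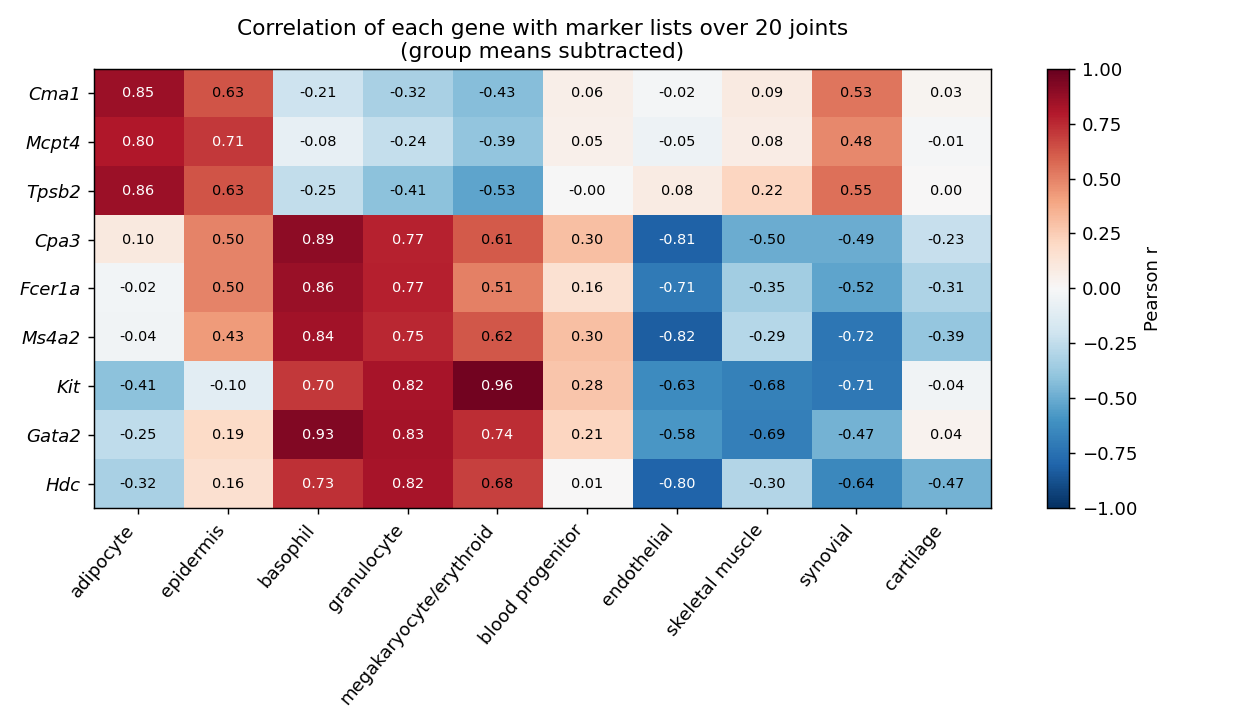
Pearson's r over 20 joints (group means subtracted) between each of the 9 genes (rows) and the mean log2 level of 10 marker lists (columns), red for positive and blue for negative values. Cma1, Mcpt4 and Tpsb2 have their highest values in the adipocyte column (0.80 to 0.86), and the other 6 genes have r of 0.70 to 0.93 in the basophil column.

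The genes whose pattern over the 20 joints was most like the mean of the 4 measured proteases (Cpa3, Cma1, Mcpt4 and Tpsb2) were Ccl24 (r = 0.96), Cd209b (0.94), Abca9 (0.92), Ifi27l2a (0.91), Cd209g (0.91), Retn (0.89), Trarg1 (0.89), Gsn (0.89), Ppl (0.88) and Ndn (0.88). Among these, Ccl24 encodes an eosinophil-attracting chemokine and Cd209b and Cd209g encode lectins of the DC-SIGN family. Retn encodes resistin, which is secreted by adipocytes in mice, and Trarg1 a trafficking regulator of the glucose transporter GLUT4. Plin1, the adipocyte lipid droplet protein, stood at rank 23 (r = 0.86), Mrgprb1 at rank 56 (r = 0.82) and the basophil protease Mcpt8 at rank 10365 (r = -0.19). Cpa3 had r of only 0.07 to 0.20 with the other 3 proteases, so that this mean mixes the 2 sets. For the mean of Cma1, Mcpt4 and Tpsb2 alone, Ccl24 (r = 0.96) and Cd209b (0.94) again led, with Retn at rank 4 (0.92) and Plin1 at rank 22 (0.87).

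For the mean of Cpa3, Fcer1a and Ms4a2, a set added after the division was seen, the order was different. Cyp4f18 (r = 0.94), Cln3 (0.93), Tpd52 (0.93) and Dennd1c (0.93) were among the genes at its head. Rasgrp4, a guanine nucleotide exchange factor known from mast cells and myeloid cells, was at rank 6 (r = 0.93), Mcpt8 at rank 11 (r = 0.91) and Prss34 at rank 35 (r = 0.89), while Mrgprb1 was at rank 6616 (r = 0.03).

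Other genes of mast cells and of their signalling were then counted from lists. Of 25 further mast cell genes 18 were measured, and compared with control 3 were higher in MSC joints (Alox5, Rab44 and Srgn), 0 in TLR3-MSC joints and 3 in STING-MSC joints (the same 3 genes), with 0 lower. Of all genes, 5.64%, 2.68% and 6.54% were higher in these comparisons. Rab44, a GTPase known from mast cell degranulation, was at 2895 ± 756 (SD, n = 5) in control, 4459 ± 1010.0 in MSC, 3634 ± 613 in TLR3-MSC and 4726 ± 825 in STING-MSC joints. It rose by 0.72 on the log2 scale in STING-MSC joints (95% confidence interval 0.34 to 1.11, FDR = 0.274, limma; exact permutation p = 0.0159) and by 0.63 in MSC joints (exact permutation p = 0.0317). Alox5, the 5-lipoxygenase of leukotriene synthesis, rose by 0.45 in STING-MSC and by 0.40 in MSC joints (exact permutation p = 0.0317 for each). Srgn, the proteoglycan core of granules in many blood cells, rose by 0.41 in MSC and 0.34 in STING-MSC joints. The median log2 fold change of the 18 genes was 0.00 in MSC, 0.05 in TLR3-MSC and 0.23 in STING-MSC joints. Of the 9 granulocyte genes given above, 3 were higher in the same MSC comparison and 7 in the same STING-MSC comparison. Their part in the rises of Rab44, Alox5 and Srgn was not tested. The 7 genes not measured included the mucosal proteases Mcpt1 and Mcpt2.

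All 21 genes of FcεRI signalling were measured, and in STING-MSC joints 10 were higher and 1 (Plcg1, -0.37) lower than in control joints, beside 6.54% and 5.69% of all genes. The kinases Syk (0.43) and Lyn (0.36), the exchange factor Vav1 (0.44) and the protein kinases C Prkcb (0.39) and Prkcd (0.39) were among the 10, as log2 fold changes with exact permutation p from 0.0317 (Prkcb) to 0.0873 (Lyn). In MSC joints 3 were higher (Fcer1g, Prkcb and Vav1) and 0 lower, beside 5.64% of all genes that were higher. In TLR3-MSC joints 0 differed, where 0 is the count at an unadjusted p of at most 0.05, beside 3.58% of all genes. A count of 0 of 21 genes cannot be told apart from that share. These genes act in most myeloid cells, and the 7 of 9 granulocyte genes given above were higher in the same STING-MSC comparison; their part was not tested. The median log2 fold change of the 21 genes was 0.28 in STING-MSC, 0.20 in MSC and 0.11 in TLR3-MSC joints.

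Of the 9 genes of stem cell factor, KIT and interleukin 3 signalling, 1 was higher than in control in MSC joints, 2 in TLR3-MSC joints and 2 in STING-MSC joints, beside 5.64%, 2.68% and 6.54% of all genes. Csf2rb, the shared β chain of the receptors for interleukin 3, interleukin 5 and GM-CSF, rose by 0.47 in STING-MSC, 0.40 in MSC and 0.32 in TLR3-MSC joints (exact permutation p = 0.0238, 0.0476 and 0.0556). Cbl, a ubiquitin ligase that acts on KIT, rose by 0.37 in STING-MSC and 0.28 in TLR3-MSC joints (exact permutation p = 0.0159 and 0.0238). Kitl, which encodes stem cell factor itself, had log2 fold changes of 0.10, 0.10 and 0.16 in MSC, TLR3-MSC and STING-MSC joints and did not pass (exact permutation p from 0.27 to 0.548).

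Of 8 genes that act downstream of histamine synthesis 6 were measured, and 1, 1 and 2 were higher than in control in MSC (Slc22a3), TLR3-MSC (Hnmt) and STING-MSC joints (Hnmt and Hrh2), beside 5.64%, 2.68% and 6.54% of all genes. The receptor gene Hrh2 did not follow Hdc across the groups. It was at 254 ± 54.7 (SD, n = 5) in control, 238 ± 49.8 in MSC, 312 ± 48.6 in TLR3-MSC and 341 ± 54.1 in STING-MSC joints. Hrh2 was higher in STING-MSC than in MSC joints, by 0.52 on the log2 scale (95% confidence interval 0.17 to 0.88, FDR = 0.824, limma, and exact permutation p = 0.0159). In TLR3-MSC joints Hrh2 was higher than in MSC joints by 0.40 (FDR = 0.978, limma, and exact permutation p = 0.0397). Of all genes, 4.94% and 3.88% passed in these 2 pairs. Hnmt, which inactivates histamine in cells, rose by 0.31 in TLR3-MSC and 0.29 in STING-MSC joints (exact permutation p = 0.0794 for each). The TLR3-MSC call passed in 13 of the 20 fits that left out 1 joint and was lost without control replicate 2, 3, 4 or 5 or TLR3-MSC replicate 1, 3 or 4; without TLR3-MSC replicate 3 the log2 fold change was 0.22.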

How the data were processed

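The authors filtered reads, aligned them to GRCm39 with STAR 2.7.3a and counted them per gene with HTSeq on an Ensembl annotation; a strand setting was not given in the sources used here. The authors deposited gene counts divided by a median-ratio size factor per joint, a normalized signal and not whole counts. In each joint 99.8% to 99.9% of the values were whole multiples of 1 read (within 0.1 read), so that the depth and the reads could be recovered.

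limma 3.58.1 (R 4.3.3) with the trend option was fitted to log2(normalized count + 1) of all 14793 genes and 20 joints, in 4 groups, with Benjamini-Hochberg FDR over all genes. Fold changes are on that scale, which understates low genes. Exact two-sided permutation tests and correlations (100000 permutations within groups) were run for single genes. Other settings tried were a pseudocount of 0.5 or 5, a filter at a mean of 20, fits of 2 groups alone, quantile-normalized values, a block for the replicate number, the omission of each joint, and edgeR 4.0.16 or DESeq2 1.42.0 run on the recovered reads. Named genes were all members, and per mast cell list the 2 genes with the smallest F test p; Srgn, Plcg1, Syk, Lyn, Vav1, Fcer1g, Kitl, Slc22a3, Plin1 and Mrgprb1 were named after their values were seen. Likeness was ranked by Pearson's r over 20 joints, and 1 gene of that order is not reported here. The tests were checked on simulated counts. The members and lists were chosen with earlier results of these data known.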

Additional observations from a re-analysis of the deposited data

Results flagged for a closer look

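Of the 36 sets of 5 joints (9 genes in 4 groups), 2 held a joint that stood apart from the other 4 by the Dixon criterion, which chance alone would mark in about 1 of 20 such sets. Cma1 in TLR3-MSC replicate 3 was at a normalized count of 367, with the next joint at 169.9, and this joint carries part of the Cma1 difference from control, which did not pass without it (log2 fold change 0.84). Gata2 in control replicate 4 was at 680.4, with the next joint at 874.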

How the results depend on the processing

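Leaving out each joint in turn, the members counted at an unadjusted p of at most 0.05 ranged from 1 to 3 for MSC against control, 0 to 4 for TLR3-MSC against control, 1 to 7 for STING-MSC against control, 0 to 0 for STING-MSC against MSC, 0 to 2 for TLR3-MSC against MSC, 0 to 1 for STING-MSC against TLR3-MSC and 1 to 4 for the F test over 4 groups. The share of all genes passing was not counted for the fits that left out 1 joint. TLR3-MSC against control gave 0 members with edgeR and 1 with DESeq2, instead of 2, and with only the 2 groups fitted Mcpt4 was lost and Hdc gained (Cma1 and Hdc). Hnmt in the same comparison was lost with only the 2 groups and with quantile normalization. STING-MSC against control gave 4 with quantile normalization, instead of 2. The single call of TLR3-MSC against MSC was lost with only the 2 groups fitted (0), and that of STING-MSC against TLR3-MSC with quantile normalization (0) and edgeR (0). Hdc for MSC and STING-MSC against control passed in all of these fits, and no log2 fold change of a named gene changed sign.

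Same-numbered joints came from different mice, and their deviations had mean correlations from -0.14 to 0.11 over the 6 pairs of groups, so that the numbers do not pair the joints. With the replicate block, 1 member (Hdc) passed for TLR3-MSC against control and 0 for STING-MSC against TLR3-MSC. The cause of these changes was not tested. With 5 joints per group, the interval of Cma1 in TLR3-MSC joints was 0.04 to 2.23 on the log2 scale. At the spread of that main fit, differences of less than about 2-fold could not pass for the 3 proteases. The limit changed with the spread: without MSC replicate 4, Cma1 passed for STING-MSC against control, where its main log2 fold change was 0.91.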
